A study of Mus musculus and Acomys cahirinus with 84 samples.

Results

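The 45 genes described here make up the antioxidant and glutathione defence of the cell: the NRF2 switch and enzymes it induces, glutathione synthesis, the thioredoxin system, peroxiredoxins, superoxide dismutases and catalase, glutathione peroxidases, glutathione transferases, metallothioneins and ferritin. They were chosen by name, as the rows of the listed symbols, and all 45 were found once among 56980 mouse genes and once among 19818 spiny mouse gene names. Stranded mRNA libraries were sequenced from primary skin fibroblasts of 3 populations: C56BL6 mice, wild mice and the African spiny mouse A. cahirinus, a rodent known for regenerating its skin. Cultures received 0, 10 or 20 Gy of gamma irradiation and were collected after 24 h or 12 d, and at 12 d a further untreated group had been passaged, which gives 21 groups of 4 libraries. The labels name no other treatment, every group was grown as a primary culture, and the age and sex of the animals are not given in the sources used here. Within a population, libraries with the same number (1 to 4) carry the same animal code in their names, so a number stands for cells of 1 animal across doses. The 24 h libraries form batch B1 and the 12 d libraries batch B2, and since batch and time then cannot be told apart, times were not tested against each other.

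NRF2, encoded by Nfe2l2, is a transcription factor that the adaptor KEAP1 marks for degradation, and that accumulates and switches on protective genes when oxidants or electrophiles modify KEAP1. Glutathione, a tripeptide made from imported cystine, and thioredoxin supply the electrons with which peroxidases remove hydrogen peroxide and lipid peroxides, while metallothioneins and ferritin hold zinc, copper and iron in a less reactive form. Ionising radiation forms reactive oxygen species in water, and fibroblasts that stop dividing after irradiation are known to keep a raised oxidant load.

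Libraries held 26653561 to 39819857 counts in C56BL6, 17419339 to 35984517 in wild mice and 25552727 to 52857478 in A. cahirinus, so that 3 counts correspond to at most 0.172 counts-per-million (CPM). Sums of 10 fibroblast markers were high in every library, between 11631 and 91258 CPM. Not every marker was: Lum had a median of 0.474 CPM in C56BL6 and 0.416 CPM in wild mice, with 0 CPM in 2 and 8 of 28 libraries. Dcn ranged from 0.740 to 1158 CPM in C56BL6 and from 0.224 to 163 CPM in wild mice. In A. cahirinus Lum was at least 33.1 CPM and Dcn at least 142 CPM. The sums of the 10 were lower after irradiation at 12 d, with a mean of 40380 ± 9087 CPM at 0 Gy and 14318 ± 2191 at 20 Gy in C56BL6 (SD, n = 4). C56BL6 number 1 also held keratinocyte markers, with sums of 839 CPM at 0 Gy and 250 CPM at 20 Gy at 12 d where the other numbers held 1.46 to 3.63 CPM. Of 4 skeletal muscle markers, the regulators Myod1 (29.98 to 183 CPM) and Myog (167 to 1013 CPM) were present in every A. cahirinus library, while mouse libraries held at most 0.221 CPM of either. Des and Acta1, the other two, were counted in every library, with up to 1352 and 869 CPM in wild mice and 45.1 and 276 CPM in C56BL6. The sum of the 4 ran from 7.41 to 313 CPM in C56BL6, from 7.27 to 2220.4 CPM in wild mice, highest in number 1 at 24 h, and from 1099 to 7828 CPM in A. cahirinus. Wild number 1 at 12 d held 0 genes that were on in it and off in wild number 4 or the reverse, against 42 such genes between wild number 1 at 12 d and at 24 h, so wild results at 12 d are also given without number 1. The other pairs of wild numbers at 12 d differed in 13 to 49 such genes. Wild number 1 at 12 d also differed in 0 such genes from wild number 4 at 24 h. Wild numbers 2, 3 and 4 at 12 d each differed in 0 from their own number at 24 h. Other pairs of unlike wild numbers across the times differed in 9 to 82. C56BL6 numbers 3 and 4 also differed in 0 such genes at 12 d and at 24 h, and A. cahirinus numbers within a time in 0 to 2. Whether wild numbers 1 and 4 at 12 d are cells of 1 animal was not tested. If they are, the wild groups at 12 d hold fewer than 4 animals, the numbers do not pair as labelled, and p-values are too small. The wild library of number 1 at 24 h and 10 Gy stood apart with the lowest depth and 17843 genes detected against a group median of 21930.5.

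Promoter sequence was used to show what NRF2 and the metal-sensing factor MTF1 are known to read. RefSeq promoters of build GRCm38.p6 were found for 38 of the 45 genes, without Hmox1, Aldh3a1, Gclc, Gsr, Prdx6, Sod3 and Gsta4. In the 250 bases before the gene start, on both strands, the core TGACNNNGC of the antioxidant response element was found in 8 of 38 members and in 11.5% of 27025 gene symbols with a promoter. The 4 stretches below hold that core in genes whose values are central here: Gclm at chr3:122245403-122245451 on the plus strand, Txnrd1 at chr10:82859094-82859142 on the plus strand, Prdx1 at chr4:116685446-116685494 on the plus strand and Nfe2l2 at chr2:75704875-75704913 on the minus strand. Each is written 5′ to 3′ in the gene's direction, with the matched bases in capitals, which read as the core or as its reverse complement.
Gclm: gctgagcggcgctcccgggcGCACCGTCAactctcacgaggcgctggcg
Txnrd1: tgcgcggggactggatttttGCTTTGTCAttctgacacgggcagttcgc
Prdx1: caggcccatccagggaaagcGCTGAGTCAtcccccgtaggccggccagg
Nfe2l2: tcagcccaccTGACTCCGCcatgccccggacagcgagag
The other members with the core were Sod1, Gstm5, Mgst1 and Mt2. The metal response core, TGCACNC or TGCGCNC, was found in 11 of 38 members and in 23.8% of the symbols, and in Gclm it overlaps the antioxidant core. The metallothionein stretches are shown because Mt1 and Mt2 were among the 3 members that fell furthest after passage of C56BL6 cells: Mt1 at chr8:94179046-94179088 holds 1 match and Mt2 at chr8:94172375-94172594 holds 3 matches, both on the plus strand. Capitals mark only the metal response core in them, and the antioxidant core that the Mt2 stretch also holds is left in lower case.
Mt1: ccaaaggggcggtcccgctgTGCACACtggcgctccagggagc
Mt2: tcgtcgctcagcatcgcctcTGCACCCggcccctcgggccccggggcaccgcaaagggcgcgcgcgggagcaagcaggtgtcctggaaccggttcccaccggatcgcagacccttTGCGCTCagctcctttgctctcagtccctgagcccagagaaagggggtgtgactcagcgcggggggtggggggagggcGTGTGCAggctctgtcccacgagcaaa
A match describes letters in this window and is not a measured binding site. For members without the antioxidant core there, among them Nqo1 and Srxn1, it says only that these letters were not in the window.

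Levels between genes were compared per length of the counted transcript, in CPM per kilobase, in the untreated cultures at 12 d. In C56BL6, Fth1, the ferritin heavy chain, stood at 725 CPM per kilobase, followed by the secreted peroxidase Gpx3 at 372 and the ferritin light chain Ftl1 at 291. The lowest were Aldh3a1, an aldehyde dehydrogenase, at 0.429 and Slc7a11, the cystine importer, at 0.278. Wild mice had the same 3 genes on top, with Gpx3 at 645, Fth1 at 523 and Ftl1 at 214, and Slc7a11 stood at 2.55. In A. cahirinus Fth1 stood at 1675, Ftl1 at 1053 and Mt2 at 423.

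Several members were scarcely counted in A. cahirinus. Gstp1, a glutathione transferase, had 0 counts in all 28 libraries, which allows at most 3 counts in each, and Gstt1 had 0 to 8 counts, Gsta4 0 to 11, Gpx8 0 to 22, Mgst1 1 to 26 and Aldh3a1 0 to 29. Rows of the same families with other names were counted, with medians of 19.7 CPM for Gsta3 and 6.46 CPM for Gstp3. Levels in A. cahirinus and mouse were therefore not compared, and only changes with treatment were. Reads that matched several places were left out of the deposited counts, so members with near-identical copies, such as Gpx1 and Gstp1 in mouse, are uncertain.

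At 12 d after 20 Gy, Nqo1, Hmox1, Gclc, Gss, Txnrd1, Srxn1, Prdx1 and Ftl1 rose in both C56BL6 and A. cahirinus cells. Keap1 and Gstm2 fell in both. Prdx4 and Gpx7 fell in C56BL6, and Gsr fell in A. cahirinus. In C56BL6, 22 of 45 members passed an adjusted p of 0.05 in edgeR's quasi-likelihood test with Benjamini-Hochberg adjustment over all genes, where 26.5% of all genes tested passed. Of these, 12 were higher (13% of all genes) and 10 lower (13.6%), and the median log2 difference of the members was -0.04 against -0.01 over all genes. In A. cahirinus 17 of 40 tested members passed (31.8% of all genes), 13 of them higher (13.8%) and 4 lower (18.1%), with a median of 0.28 against 0.00. In wild mice 0 of 45 passed (0.0694% of all genes). An unadjusted p under 0.05 was found for 13 members and for 1984 of 14399 genes. DESeq2 called 6 (4.6% of all genes). The fit with the animal number as a block, called the block from here on, called 15 (15.4% of all genes). With the block, 34 members passed in C56BL6 (47.5%) and 26 in A. cahirinus (49.2%). In bulk RNA, fewer cells of a type and less RNA per cell cannot be told apart.

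**Figure D1:**
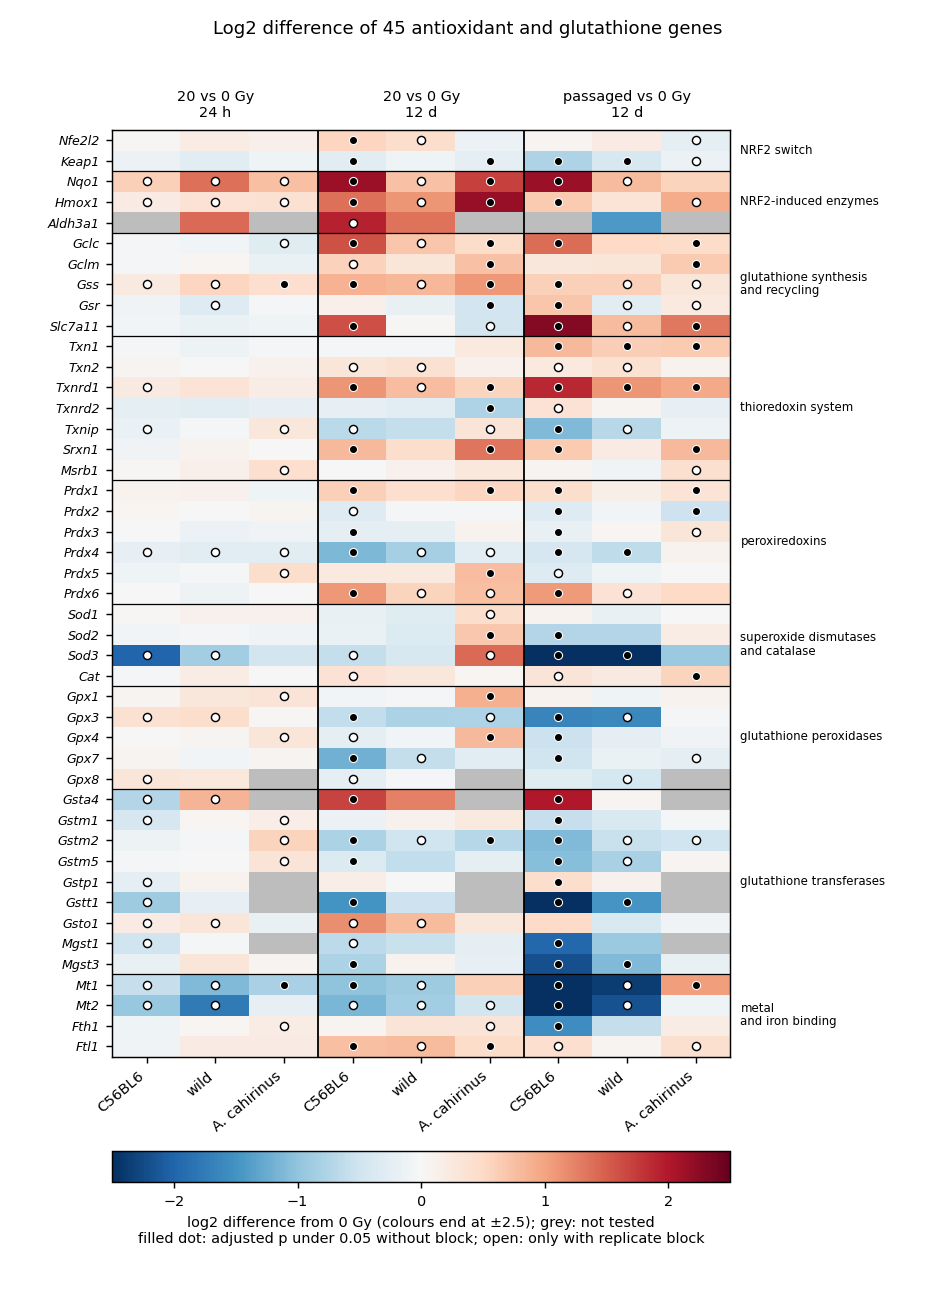
Log2 difference of the 45 members, in rows by role, for 20 against 0 Gy at 24 h, 20 against 0 Gy at 12 d and passaged against 0 Gy at 12 d in 3 populations. Colour ends at ±2.5, grey marks a gene that was not tested, filled dots an adjusted p under 0.05 and open dots one under 0.05 only with the block. At 20 Gy and 12 d there are 22 filled dots in C56BL6 (26.5% of all genes passed), 17 in A. cahirinus (31.8%) and 0 in wild mice (0.0694%), where 15 are open, and the change differed between wild and C56BL6 mice for 0 members without the block.

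The counts moved with single animals. Leaving out number 3 took the C56BL6 count from 22 to 12 (7.17% of all genes) and leaving out number 1 raised it to 32 (40% of all genes). In A. cahirinus the count fell to 5 without number 1 (12%) and was 28 without number 2 (49.4%), and in wild mice the block without number 1 called 3 members (2% of all genes), Hmox1, Gss and Gsto1. Beside these changes, the summed level of 10 genes of dividing cells, Mki67, Top2a and others, ranged from 81.1 to 344 CPM at 0 Gy and 53.2 to 107 at 20 Gy in C56BL6, with 1 of 10 called lower, or 7 with the block. It ranged from 319 to 432 and 80.4 to 93.1 CPM in A. cahirinus, with 9 of 10 called lower in either fit, and from 52.2 to 341 and 54.4 to 158 CPM in wild mice, with 0 called, or 2 lower with the block and 0 with the block without number 1. The fibroblast marker sum in A. cahirinus went from 34736 ± 2905 to 26845 ± 5601 CPM (SD, n = 4). The skeletal muscle sum there was 4666, 2373, 4806 and 4282 CPM at 0 Gy, 7230.3, 1529.9, 7305 and 7828 CPM at 20 Gy, and 3259.8, 1677, 3179.7 and 2874 CPM after passage. It was higher at 20 Gy in numbers 1, 3 and 4 and lower in number 2, which was the lowest in each of these groups. The part of these differences in the members' values was not tested.

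Of the NRF2 switch, Nfe2l2 rose and Keap1 fell in C56BL6. Nfe2l2 stood at 133, 124, 145 and 135 CPM at 0 Gy, 144, 185, 220.2 and 218 at 10 Gy, 150.3, 187, 218 and 212 at 20 Gy and 118, 124, 156 and 159 after passage in C56BL6, each list giving numbers 1 to 4. Wild libraries held 107.8, 91.8, 148 and 104 CPM at 0 Gy, 146, 138, 169 and 133 at 10 Gy, 138, 150.3, 164 and 145 at 20 Gy and 129, 123, 128 and 138 after passage. A. cahirinus libraries held 129, 119, 133 and 146 CPM at 0 Gy, 123, 109.6, 139 and 142 at 10 Gy, 118, 117, 111 and 123 at 20 Gy and 111, 101.4, 117 and 127 after passage. Every C56BL6 library at 20 Gy lay above every one at 0 Gy, wild libraries overlapped, with number 3 already high at 0 Gy, and A. cahirinus libraries overlapped throughout. Nfe2l2 rose in C56BL6 by 0.53 ± 0.12 (adjusted p = 0.0146) on the log2 scale (SE), a call lost without number 2, 3 or 4, and its differences were 0.44 ± 0.16 (adjusted p = 0.284) in wild mice, or 0.46 ± 0.11 (adjusted p = 0.0358) with the block, and -0.15 ± 0.08 (adjusted p = 0.211) in A. cahirinus.

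Keap1, the repressor of NRF2, stood at 65.8, 73.3, 66.5 and 65.6 CPM at 0 Gy, 50.8, 55.3, 57.05 and 66.5 at 10 Gy, 49.7, 56.6, 60.7 and 55.5 at 20 Gy and 40.9, 36.7, 36.5 and 43.9 after passage in C56BL6. Wild levels were 64.8, 70.0, 69.3 and 61.9 CPM at 0 Gy, 62.7, 55.2, 58.6 and 65.6 at 10 Gy, 59.2, 61.2, 62.1 and 59.6 at 20 Gy and 45.5, 50.9, 54.1 and 50.5 after passage. A. cahirinus levels were 45.8, 47.9, 47.01 and 49.3 CPM at 0 Gy, 41.8, 47.3, 45.9 and 41.5 at 10 Gy, 37.6, 39.5, 38.3 and 43.4 at 20 Gy and 42.4, 41.99, 44.5 and 44.97 after passage. All 4 libraries at 20 Gy lay below all 4 at 0 Gy in C56BL6 and A. cahirinus, wild libraries overlapped narrowly, and passaged mouse libraries lay lower still. Keap1 fell by 0.27 ± 0.08 (adjusted p = 0.0332) in C56BL6 and by 0.24 ± 0.07 (adjusted p = 0.0392) in A. cahirinus. Each call was lost when any of 3 animals was left out, with adjusted p up to 0.153 and 0.201. In wild mice the difference was -0.10 ± 0.09 (adjusted p = 0.699).

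Nqo1, a quinone reductase and a classical NRF2 target, changed most among the C56BL6 members. It stood at 9.08, 16.6, 12.5 and 11.6 CPM at 0 Gy, 35.8, 45.8, 44.7 and 51.4 at 10 Gy, 48.5, 64.5, 52.1 and 51.8 at 20 Gy and 54.9, 49.5, 55.5 and 61.7 after passage. Wild libraries held 9.42, 10.7, 11.1 and 7.34 CPM at 0 Gy, 15.1, 15.02, 16.3 and 12.6 at 10 Gy, 17.8, 17.1, 15.3 and 12.001 at 20 Gy and 12.6, 24.04, 18.8 and 11.6 after passage. A. cahirinus libraries held 1.25, 2.11, 0.793 and 2.22 CPM at 0 Gy, 3.78, 4.25, 2.27 and 4.20 at 10 Gy, 4.98, 3.92, 5.59 and 6.27 at 20 Gy and 2.94, 1.71, 2.65 and 2.32 after passage. Irradiated and untreated libraries did not overlap in any population, and the lowest C56BL6 library at 20 Gy was above the highest wild one. Nqo1 rose by 2.13 ± 0.19 (adjusted p = 0.000882) in C56BL6, a fold of 4.39, in all 4 same-number pairs. It rose by 1.72 ± 0.33 (adjusted p = 0.00591) in A. cahirinus, a call lost without number 1 (adjusted p = 0.0573). In wild mice it differed by 0.72 ± 0.20 (adjusted p = 0.177), and by 0.73 ± 0.12 (adjusted p = 0.0131) with the block. Nqo1 was the 1 member whose change differed between wild and C56BL6 mice with the block, by -1.43 ± 0.14 (adjusted p = 0.0139), where 0.101% of all genes passed. Without the block 0 of 45 passed in that comparison (0% of all genes), and DESeq2 called 2 (0.0503%).

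Hmox1, heme oxygenase 1, which breaks down heme, stood at 199, 225, 224 and 197 CPM at 0 Gy, 484, 517, 587 and 526 at 10 Gy, 556, 571, 579.7 and 471 at 20 Gy and 318, 316, 355 and 329 after passage in C56BL6. The wild values were 202, 139, 205 and 172 CPM at 0 Gy, 357, 279, 417 and 299 at 10 Gy, 381, 351, 413 and 348 at 20 Gy and 258, 208, 213 and 234 after passage. The A. cahirinus values were 54.98, 126, 32.7 and 31.2 CPM at 0 Gy, 138, 363, 87.6 and 74.0 at 10 Gy, 237, 443, 229 and 188 at 20 Gy and 104, 154, 129 and 87.4 after passage. No library at 20 Gy overlapped with 0 Gy in any population, and A. cahirinus number 2 was the highest of its population in every group. Hmox1 rose by 1.38 ± 0.10 (adjusted p = 0.000517) in C56BL6 and by 2.18 ± 0.50 (adjusted p = 0.0121) in A. cahirinus, where the call was lost without number 1 or 3 (adjusted p up to 0.0884). The wild difference was 1.09 ± 0.16 (adjusted p = 0.0634), and 1.11 ± 0.11 (adjusted p = 0.00391) with the block, still called without number 1.

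Aldh3a1, which oxidises aldehydes from lipid peroxidation, was scarce. C56BL6 libraries held 0.206, 1.26, 1.18 and 0.694 CPM at 0 Gy, 0.714, 3.01, 3.24 and 2.95 at 10 Gy, 0.891, 4.29, 3.34 and 4.02 at 20 Gy and 0.0879, 0, 0 and 0.103 after passage. Number 1 was lowest at 0, 10 and 20 Gy, and the passaged libraries were at or near 0. The C56BL6 difference at 20 Gy was 1.92 ± 0.62 (adjusted p = 0.0525), and 1.95 ± 0.24 (adjusted p = 0.00123) with the block. Wild libraries ranged from 0.135 to 5.95 CPM across 0, 10 and 20 Gy without a call.

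**Figure D2:**
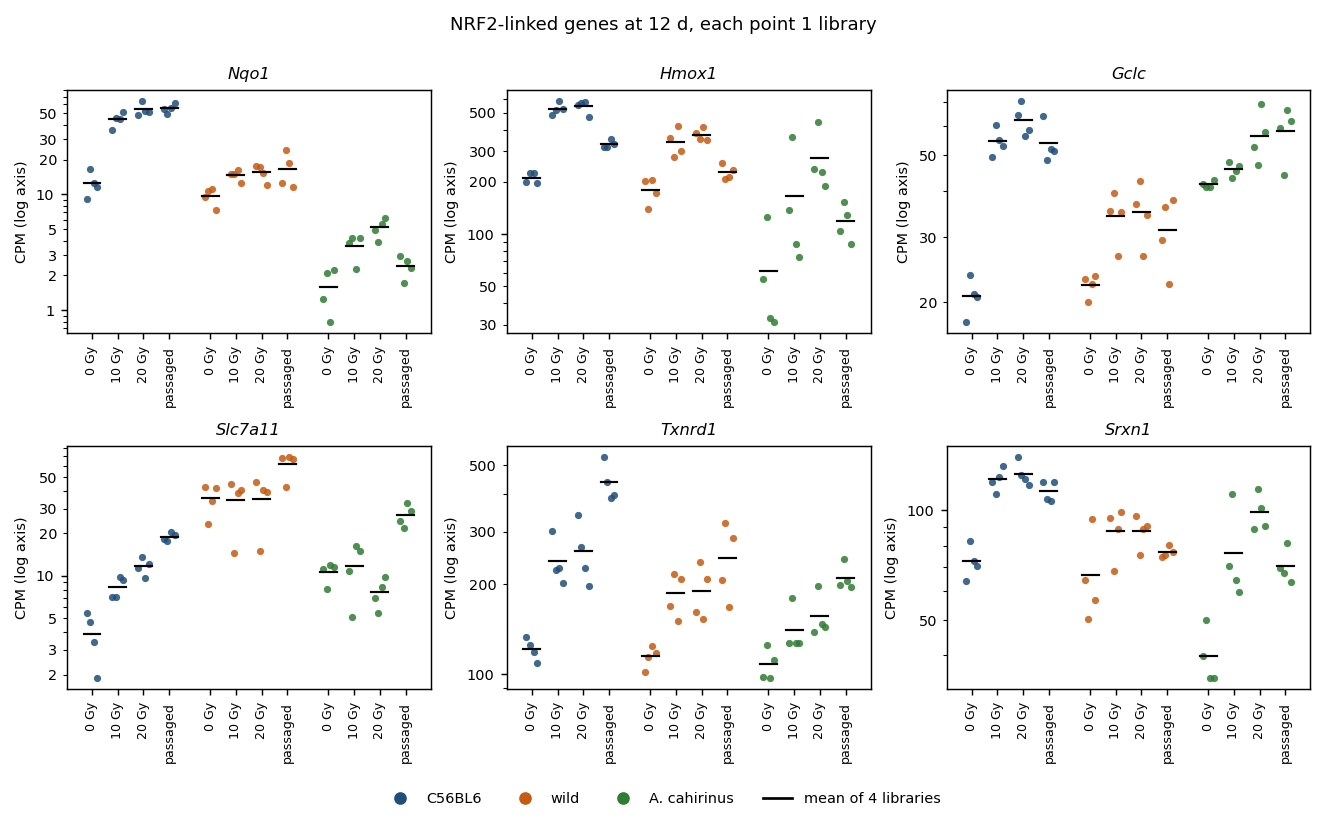
CPM on a log axis of 6 members at 12 d in each library of 0 Gy, 10 Gy, 20 Gy and passaged cells, with a line at the mean of 4. Levels of A. cahirinus come from another gene table and are not compared with mouse levels. Nqo1 libraries of C56BL6 run from 9.08 to 16.6 CPM at 0 Gy and from 48.5 to 64.5 CPM at 20 Gy, while Slc7a11 in wild mice overlaps between doses.

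In glutathione synthesis and recycling, 3 of 5 members rose in C56BL6 (13% of all genes), and in A. cahirinus 3 rose (13.8%) and 1 fell (18.1%). Gclc, the catalytic subunit of glutamate-cysteine ligase, which makes the first bond of glutathione, stood at 17.7, 23.7, 21.1 and 20.6 CPM at 0 Gy, 49.6, 60.5, 55.02 and 53.2 at 10 Gy, 64.5, 70.4, 56.4 and 58.4 at 20 Gy and 63.9, 48.6, 52.1 and 51.6 after passage in C56BL6. Wild cells gave 23.1, 19.99, 22.4 and 23.6 CPM at 0 Gy, 35.3, 39.6, 26.8 and 35.1 at 10 Gy, 37.04, 42.5, 26.8 and 34.5 at 20 Gy and 29.4, 36.2, 22.4 and 37.8 after passage. Spiny mouse libraries held 41.8, 41.2, 40.98 and 43.03 CPM at 0 Gy, 48.04, 43.6, 45.3 and 46.7 at 10 Gy, 52.7, 47.02, 68.8 and 57.9 at 20 Gy and 59.4, 44.4, 66.5 and 62.01 after passage. Doses did not overlap with 0 Gy in any population, and the C56BL6 gap was widest. Gclc rose by 1.60 ± 0.11 (adjusted p = 0.000517) in C56BL6, a fold of 3.03, and by 0.46 ± 0.12 (adjusted p = 0.0181) in A. cahirinus, a call lost without number 1, 3 or 4 (adjusted p up to 0.0853). In wild cells it differed by 0.70 ± 0.15 (adjusted p = 0.117), and by 0.68 ± 0.14 (adjusted p = 0.022) with the block.

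Gclm, the regulatory subunit of the same ligase, stood at 34.4, 68.6, 80.3 and 86.2 CPM at 0 Gy, 70.5, 103, 101.5 and 100.7 at 10 Gy, 84.8, 112, 103 and 99.1 at 20 Gy and 80.9, 71.3, 87.8 and 84.7 after passage in C56BL6. Levels in wild mice were 48.4, 41.3, 72.9 and 38.8 CPM at 0 Gy, 60.9, 57.6, 67.2 and 54.1 at 10 Gy, 60.9, 59.5, 69.03 and 52.4 at 20 Gy and 63.05, 62.2, 64.4 and 58.5 after passage. Levels in A. cahirinus were 19.1, 27.01, 18.8 and 18.96 CPM at 0 Gy, 27.7, 36.4, 21.6 and 20.7 at 10 Gy, 32.7, 47.8, 29.4 and 27.2 at 20 Gy and 31.5, 33.997, 36.4 and 32.05 after passage. C56BL6 number 1 was low at 0 Gy, the mouse groups overlapped, and the A. cahirinus libraries at 20 Gy lay just above those at 0 Gy. Gclm rose in A. cahirinus by 0.73 ± 0.20 (adjusted p = 0.0266), lost without number 1, 3 or 4 (adjusted p up to 0.155). It differed by 0.58 ± 0.26 (adjusted p = 0.13) in C56BL6, and by 0.65 ± 0.17 (adjusted p = 0.0226) with the block, and by 0.30 ± 0.21 (adjusted p = 0.594) in wild mice.

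Slc7a11 imports the cystine from which glutathione is made. In C56BL6 it stood at 5.48, 4.68, 3.401 and 1.89 CPM at 0 Gy, 7.14, 7.10, 9.80 and 9.36 at 10 Gy, 11.3, 13.6, 9.66 and 12.2 at 20 Gy and 18.2, 17.5, 20.3 and 19.6 after passage. Wild libraries held 42.8, 23.2, 33.8 and 42.03 CPM at 0 Gy, 44.8, 14.6, 38.5 and 40.5 at 10 Gy, 46.2, 15.1, 40.2 and 39.3 at 20 Gy and 67.9, 42.6, 69.6 and 66.7 after passage. A. cahirinus libraries held 11.3, 8.03, 11.97 and 11.6 CPM at 0 Gy, 10.8, 5.09, 16.3 and 15.1 at 10 Gy, 6.95, 5.51, 8.30 and 9.79 at 20 Gy and 24.3, 21.99, 33.04 and 28.8 after passage. All C56BL6 libraries at 20 Gy were above those at 0 Gy, wild libraries were as high at 0 Gy as at 20 Gy with number 2 low throughout, and in A. cahirinus all 4 libraries at 20 Gy lay below 3 of the 4 at 0 Gy. Passaged libraries were highest in C56BL6 and A. cahirinus, without overlap. Slc7a11 rose by 1.61 ± 0.31 (adjusted p = 0.008) in C56BL6, a call lost without number 2 or 3 (adjusted p up to 0.0594). The difference was 0.03 ± 0.35 (adjusted p = 0.984) in wild mice and -0.47 ± 0.20 (adjusted p = 0.112) in A. cahirinus, where it was -0.48 ± 0.11 (adjusted p = 0.0107) with the block.

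Gss, glutathione synthetase, which adds the last amino acid, stood at 22.04, 21.6, 17.6 and 15.96 CPM at 0 Gy, 39.12, 34.5, 30.6 and 36.1 at 10 Gy, 36.9, 38.6, 33.4 and 30.5 at 20 Gy and 31.4, 31.7, 24.5 and 28.8 after passage in C56BL6. In wild mice it stood at 20.3, 15.1, 19.1 and 19.8 CPM at 0 Gy, 34.7, 22.7, 30.1 and 35.5 at 10 Gy, 37.4, 24.6, 30.6 and 36.4 at 20 Gy and 33.1, 26.2, 21.8 and 30.9 after passage. In A. cahirinus it stood at 20.2, 22.7, 18.5 and 19.1 CPM at 0 Gy, 35.2, 49.05, 29.8 and 24.96 at 10 Gy, 42.3, 50.1, 38.4 and 37.7 at 20 Gy and 24.1, 22.4, 26.9 and 26.9 after passage. All irradiated libraries were above all untreated ones in each population. Gss rose by 0.87 ± 0.13 (adjusted p = 0.00322) in C56BL6 and 1.09 ± 0.12 (adjusted p = 0.00054) in A. cahirinus, and differed by 0.84 ± 0.17 (adjusted p = 0.0998) in wild mice, or 0.83 ± 0.09 (adjusted p = 0.00492) with the block, which was also called without number 1. Gsr, glutathione reductase, which regenerates glutathione, stood in A. cahirinus at 67.5, 71.0, 65.7 and 57.4 CPM at 0 Gy, 56.6, 51.8, 65.5 and 56.7 at 10 Gy, 47.9, 49.2, 43.3 and 45.3 at 20 Gy and 82.8, 66.9, 83.7 and 82.2 after passage. The libraries at 20 Gy were the lowest and the passaged ones among the highest. Gsr fell by 0.47 ± 0.09 (adjusted p = 0.00504) in A. cahirinus, lost without number 1 or 3 (adjusted p up to 0.0757), and differed by 0.13 ± 0.10 (adjusted p = 0.364) in C56BL6 and -0.19 ± 0.27 (adjusted p = 0.831) in wild mice.

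Of 7 members of the thioredoxin system, 2 rose in C56BL6 (13% of all genes), and in A. cahirinus 2 rose (13.8%) and 1 fell (18.1%). Txnrd1, the cytosolic thioredoxin reductase, stood at 133, 125, 118 and 109 CPM at 0 Gy, 302, 224, 226 and 202 at 10 Gy, 340.2, 266, 226 and 197 at 20 Gy and 534, 441, 389.8 and 399 after passage in C56BL6. Wild libraries held 101.9, 114, 124 and 118 CPM at 0 Gy, 169, 217, 150.4 and 208 at 10 Gy, 161, 236, 153 and 209 at 20 Gy and 207, 322, 168 and 285 after passage. A. cahirinus libraries held 97.9, 125, 96.9 and 112 CPM at 0 Gy, 127, 180.3, 127 and 127 at 10 Gy, 138, 198, 147 and 144 at 20 Gy and 198, 243, 205 and 195 after passage. Irradiated libraries did not overlap with untreated ones in any population, and A. cahirinus number 2 was the highest of its population at every dose. Txnrd1 rose by 1.10 ± 0.17 (adjusted p = 0.00339) in C56BL6 and by 0.56 ± 0.14 (adjusted p = 0.0179) in A. cahirinus, a call lost without number 1, 3 or 4 (adjusted p up to 0.121). In wild cells it differed by 0.77 ± 0.16 (adjusted p = 0.113), and by 0.75 ± 0.13 (adjusted p = 0.0157) with the block.

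Srxn1, sulfiredoxin, which repairs overoxidised peroxiredoxins, stood at 64.1, 82.6, 72.5 and 70.5 CPM at 0 Gy, 119.7, 111, 124 and 132 at 10 Gy, 140.3, 125, 122 and 117 at 20 Gy and 120.0, 107, 106 and 119 after passage in C56BL6. Wild levels were 64.4, 50.3, 94.8 and 56.6 CPM at 0 Gy, 95.3, 68.1, 88.7 and 99.2 at 10 Gy, 96.5, 75.5, 88.9 and 90.7 at 20 Gy and 74.5, 75.5, 80.4 and 76.7 after passage. A. cahirinus levels were 39.7, 50.2, 34.6 and 34.7 CPM at 0 Gy, 70.1, 111, 64.3 and 59.7 at 10 Gy, 89.1, 114, 101.5 and 90.4 at 20 Gy and 69.5, 67.3, 81.5 and 63.7 after passage. Doses did not overlap with 0 Gy in C56BL6 or A. cahirinus, and wild number 3 at 0 Gy was as high as irradiated libraries. Srxn1 rose by 0.81 ± 0.10 (adjusted p = 0.00163) in C56BL6 and by 1.33 ± 0.14 (adjusted p = 0.000545) in A. cahirinus, both called without any single animal, and differed by 0.44 ± 0.21 (adjusted p = 0.397) in wild mice. Txnrd2, the mitochondrial reductase, fell in A. cahirinus from 17.4, 14.6, 17.5 and 17.6 to 8.88, 8.63, 9.93 and 11.4 CPM, with all libraries at 20 Gy below those at 0 Gy. The fall was 0.77 ± 0.12 (adjusted p = 0.00244), and the difference in C56BL6 was -0.20 ± 0.13 (adjusted p = 0.267).

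Among 6 peroxiredoxins, Prdx1 and Prdx6 rose in C56BL6 by 0.59 ± 0.09 and 1.08 ± 0.09, and Prdx3 and Prdx4 fell, the Prdx3 call being lost without number 2, 3 or 4 (adjusted p up to 0.156). Prdx4, which works in the endoplasmic reticulum, stood at 112, 126, 151 and 144 CPM at 0 Gy, 62.6, 57.8, 64.3 and 79.9 at 10 Gy, 56.1, 58.6, 71.1 and 56.9 at 20 Gy and 97.4, 92.6, 94.02 and 111 after passage in C56BL6. The wild values were 231, 224, 154 and 233 CPM at 0 Gy, 132, 95.9, 104 and 124 at 10 Gy, 138, 99.2, 112 and 111 at 20 Gy and 135, 148, 134 and 126 after passage. Every irradiated library lay below every untreated one in both mouse populations. Prdx4 fell by 1.13 ± 0.12 (adjusted p = 0.00122) in C56BL6, and differed by -0.83 ± 0.17 (adjusted p = 0.104) in wild mice, or -0.82 ± 0.13 (adjusted p = 0.0125) with the block, and by -0.27 ± 0.19 (adjusted p = 0.297) in A. cahirinus. In A. cahirinus Prdx1, the abundant cytosolic member, rose by 0.54 ± 0.14 (adjusted p = 0.0201), lost without number 1, 3 or 4 (adjusted p up to 0.126). Prdx5, which is found in mitochondria and peroxisomes, rose by 0.77 ± 0.10 (adjusted p = 0.0012), a call that held without any single number.

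Of the superoxide dismutases and catalase, 0 of 4 passed in C56BL6 (26.5% of all genes), where Sod3 and Cat passed with the block (47.5%), and 1 rose in A. cahirinus (13.8%). Sod2, the mitochondrial dismutase, stood at 38.9, 65.4, 94.1 and 80.6 CPM at 0 Gy, 49.96, 65.6, 71.7 and 86.6 at 10 Gy, 46.2, 64.1, 68.5 and 67.8 at 20 Gy and 47.2, 40.7, 37.2 and 40.8 after passage in C56BL6. Wild cells gave 57.2, 34.8, 176 and 45.3 CPM at 0 Gy, 57.96, 45.8, 77.1 and 56.8 at 10 Gy, 61.5, 49.1, 75.6 and 54.98 at 20 Gy and 45.6, 45.96, 52.04 and 44.7 after passage. The A. cahirinus values were 30.5, 31.1, 33.7 and 23.4 CPM at 0 Gy, 37.7, 52.6, 37.9 and 27.2 at 10 Gy, 43.98, 59.1, 47.5 and 34.8 at 20 Gy and 40.8, 28.7, 37.9 and 29.7 after passage. Mouse groups overlapped, with wild number 3 far above the others at 0 Gy, and A. cahirinus libraries at 20 Gy lay just above those at 0 Gy. Sod2 rose in A. cahirinus by 0.66 ± 0.17 (adjusted p = 0.0212), lost without number 1 or 3 (adjusted p up to 0.112), and differed by -0.17 ± 0.26 (adjusted p = 0.668) and -0.34 ± 0.49 (adjusted p = 0.8291) in C56BL6 and wild mice.

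Cat, catalase, stood at 79.0, 117, 101.8 and 105 CPM at 0 Gy, 99.96, 123, 122 and 120.0 at 10 Gy, 124, 132, 135 and 121 at 20 Gy and 121, 129, 121 and 127 after passage in C56BL6. Levels in wild mice were 81.1, 96.5, 97.04 and 79.0 CPM at 0 Gy, 114, 94.6, 93.3 and 93.3 at 10 Gy, 112, 118, 97.3 and 89.9 at 20 Gy and 114, 103, 93.6 and 104 after passage. Spiny mouse libraries held 118, 119.7, 113 and 107 CPM at 0 Gy, 124, 125, 125 and 126 at 10 Gy, 120.1, 121, 111 and 118 at 20 Gy and 173, 157, 185 and 170.0 after passage. The C56BL6 libraries at 20 Gy lay above those at 0 Gy, wild and A. cahirinus libraries overlapped between these doses, and the passaged A. cahirinus libraries were the highest of their population. Cat differed at 20 Gy by 0.35 ± 0.12 (adjusted p = 0.0578) in C56BL6, or 0.37 ± 0.09 (adjusted p = 0.0183) with the block, by 0.28 ± 0.14 (adjusted p = 0.417) in wild mice and by 0.06 ± 0.07 (adjusted p = 0.56) in A. cahirinus.

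Of the glutathione peroxidases, Gpx3 and Gpx7 fell in C56BL6 and Gpx1 and Gpx4 rose in A. cahirinus. Gpx7, a peroxidase of the endoplasmic reticulum, stood at 56.3, 49.3, 65.9 and 58.5 CPM at 0 Gy, 30.4, 21.4, 26.6 and 32.2 at 10 Gy, 23.2, 22.1, 28.6 and 25.8 at 20 Gy and 36.5, 36.8, 42.5 and 46.1 after passage in C56BL6, where the irradiated libraries were below the untreated and the passaged ones. It fell by 1.19 ± 0.12 (adjusted p = 0.00106), and the differences were -0.60 ± 0.26 (adjusted p = 0.363) in wild mice, or -0.62 ± 0.15 (adjusted p = 0.0354) with the block, and -0.26 ± 0.19 (adjusted p = 0.315) in A. cahirinus. Gpx4, which reduces lipid peroxides in membranes, stood at 95.3, 99.8, 104 and 100.01 CPM at 0 Gy, 151, 176, 153 and 129 at 10 Gy, 181, 159, 177 and 174 at 20 Gy and 86.9, 91.4, 100.6 and 101.1 after passage in A. cahirinus. In C56BL6 it stood at 234, 228, 187 and 176 CPM at 0 Gy, 268, 167, 162 and 216 at 10 Gy, 201, 177, 174 and 151 at 20 Gy and 158, 142, 116 and 145 after passage. All irradiated A. cahirinus libraries were above all untreated and passaged ones, and C56BL6 libraries overlapped. Gpx4 rose by 0.81 ± 0.07 (adjusted p = 0.000317) in A. cahirinus and differed by -0.22 ± 0.13 (adjusted p = 0.23) in C56BL6, or -0.21 ± 0.06 (adjusted p = 0.0338) with the block. Gpx1, the cytosolic peroxidase, rose in A. cahirinus by 0.89 ± 0.17 (adjusted p = 0.00564), lost without number 1 (adjusted p = 0.0618), and the C56BL6 call for Gpx3 was lost without number 3 or 4 (adjusted p up to 0.0749).

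Of 9 glutathione transferases, which join glutathione to electrophiles, 4 fell (13.6% of all genes) and 1 rose (13%) in C56BL6. Gsta4, which handles the lipid peroxidation product hydroxynonenal, stood at 1.47, 3.81, 2.10 and 2.996 CPM at 0 Gy, 8.63, 7.64, 8.14 and 10.1 at 10 Gy, 9.13, 7.44, 7.95 and 8.53 at 20 Gy and 17.1, 5.22, 10.8 and 8.18 after passage. Gstt1 stood at 13.95, 40.7, 50.1 and 45.8 CPM at 0 Gy, 6.93, 13.5, 16.9 and 18.7 at 10 Gy, 5.82, 10.9, 20.7 and 15.9 at 20 Gy and 2.11, 2.98, 8.38 and 7.81 after passage. Gstm2 stood at 186, 239.7, 238 and 239 CPM at 0 Gy, 130.01, 139, 124 and 152 at 10 Gy, 121, 132, 129.6 and 134 at 20 Gy and 82.6, 106, 111 and 115 after passage. Untreated libraries were the lowest for Gsta4 and the highest for Gstm2 without overlap, and Gstt1 number 1 at 0 Gy lay among the irradiated libraries. Gsta4 rose by 1.68 ± 0.28 (adjusted p = 0.00504), lost without number 3 (adjusted p = 0.0535). Gstt1 fell by 1.49 ± 0.47 (adjusted p = 0.0497), lost without number 2, 3 or 4 (adjusted p up to 0.205), and Gstm2 by 0.80 ± 0.10 (adjusted p = 0.00177). In A. cahirinus Gstm2 went from 12.7, 17.9, 14.6 and 13.7 to 9.31, 11.5, 7.66 and 6.999 CPM and fell by 0.71 ± 0.18 (adjusted p = 0.0193), lost without number 1, 3 or 4 (adjusted p up to 0.148).

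Among metal-binding members, Ftl1 rose in C56BL6 by 0.76 ± 0.15 (adjusted p = 0.00879), lost without number 3 (adjusted p = 0.0796), and in A. cahirinus by 0.47 ± 0.15 (adjusted p = 0.0469), lost without number 1, 3 or 4 (adjusted p up to 0.204). It differed in wild mice by 0.86 ± 0.14 (adjusted p = 0.0116) with the block only. Mt1, a metallothionein, stood at 142, 149, 229.6 and 276 CPM at 0 Gy, 52.5, 105, 139 and 176 at 10 Gy, 52.7, 98.1, 123 and 120.3 at 20 Gy and 9.70, 18.4, 29.2 and 35.9 after passage in C56BL6. In wild mice it stood at 144, 127, 316 and 102.4 CPM at 0 Gy, 81.4, 73.8, 160.0 and 68.4 at 10 Gy, 72.4, 81.1, 145 and 63.9 at 20 Gy and 17.9, 12.98, 86.8 and 15.9 after passage. Levels in A. cahirinus were 8.90, 10.05, 5.97 and 5.62 CPM at 0 Gy, 6.47, 12.3, 9.85 and 6.51 at 10 Gy, 9.59, 9.48, 14.7 and 11.8 at 20 Gy and 12.6, 12.3, 19.99 and 19.4 after passage. C56BL6 libraries at 20 Gy were below those at 0 Gy, wild number 3 was the highest of its population in all 4 groups, and A. cahirinus libraries overlapped between doses. Mt1 fell by 1.003 ± 0.31 (adjusted p = 0.0463) in C56BL6, lost without number 2, 3 or 4 (adjusted p up to 0.142), and differed by -0.82 ± 0.11 (adjusted p = 0.00801) with the block in wild mice and by 0.60 ± 0.23 (adjusted p = 0.082) in A. cahirinus.

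The comparisons at 10 Gy share their untreated libraries with those at 20 Gy. In C56BL6, 18 of 45 members passed at 10 Gy and 12 d (20.9% of all genes), 12 higher (10.3%) and 6 lower (10.6%), with a median of 0.10 against -0.01 over all genes. Nqo1 rose by 1.85 ± 0.19, Gsta4 by 1.75 ± 0.29, Gclc by 1.41 ± 0.11 and Hmox1 by 1.34 ± 0.09. Gstt1 fell by 1.41 ± 0.43, Gpx7 by 1.04 ± 0.14, Prdx4 by 0.996 ± 0.13 and Gstm2 by 0.71 ± 0.11. Leaving out number 3 reduced the count to 6 (1.9%), and of these 8 genes Gsta4, Gpx7, Gstt1 and Gstm2 were among those lost. With the block 29 passed (38.8%).

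In A. cahirinus 1 of 39 members passed at 10 Gy, Gpx4 (2.87% of all genes), which rose by 0.62 ± 0.11 (adjusted p = 0.0392), lost without number 1, 3 or 4 (adjusted p up to 0.329). With the block 16 passed (27.5%), led by Hmox1 at 1.39 ± 0.07 (adjusted p = 0.000158), Nqo1 at 1.24 ± 0.18 (adjusted p = 0.00364) and Srxn1 at 0.92 ± 0.08 (adjusted p = 0.000869). In wild mice 0 of 45 passed at 10 Gy (0.264% of all genes), and DESeq2 called 6 (4.17%). An unadjusted p under 0.05 was found there for 9 members and for 1763 of 14391 genes. The block called 14 (12.7%), and 4 without number 1 (2.52%).

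The change at 20 Gy and 12 d was compared between A. cahirinus and C56BL6 as a difference of log2 differences. It differed for 13 of 45 members (18.8% of all genes), 8 with the more positive change in A. cahirinus (8.11%) and 5 in C56BL6 (10.7%). The change was more positive in C56BL6 for 5 members: Slc7a11 differed by -2.08 ± 0.37 (adjusted p = 0.00204), Gclc by -1.14 ± 0.16 (adjusted p = 0.000491), Nfe2l2 by -0.67 ± 0.15 (adjusted p = 0.00708), Gsr by -0.60 ± 0.14 (adjusted p = 0.00838) and Txnrd2 by -0.56 ± 0.16 (adjusted p = 0.0258). It was more positive in A. cahirinus for 8: Gpx4 differed by 1.03 ± 0.14 (adjusted p = 0.000417), Mt1 by 1.60 ± 0.42 (adjusted p = 0.017), Gpx7 by 0.94 ± 0.25 (adjusted p = 0.019) and Prdx4 by 0.86 ± 0.25 (adjusted p = 0.0276). Gpx1, Mgst3 and Prdx3 differed by 0.97 ± 0.32, 0.60 ± 0.15 and 0.34 ± 0.10. The Gpx1 difference rests on mouse counts that are uncertain, since reads that matched several places were left out. Gstt1 also passed, but at 0 to 8 counts in A. cahirinus its value of 3.22 has no reading as a change.

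The calls for Slc7a11, Gclc and Gpx4 held when any single number was left out of both populations, each of the other 10 was lost without at least 1 number, and the count fell to 4 without number 3 (4.31%) or number 4 (6.64%). Between A. cahirinus and wild mice 1 member differed (3.31% of all genes), Gpx4 by 0.91 ± 0.19 (adjusted p = 0.023), a call lost without number 1, 3 or 4 (adjusted p up to 0.216). The block called 14 there (23.4%), and 10 without wild number 1 (16.5%). Both comparisons use the same A. cahirinus libraries. The dividing-cell genes differed too, with 3 of 10 called lower in A. cahirinus than in C56BL6 in the same test, or 7 with the block.

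**Figure D3:**
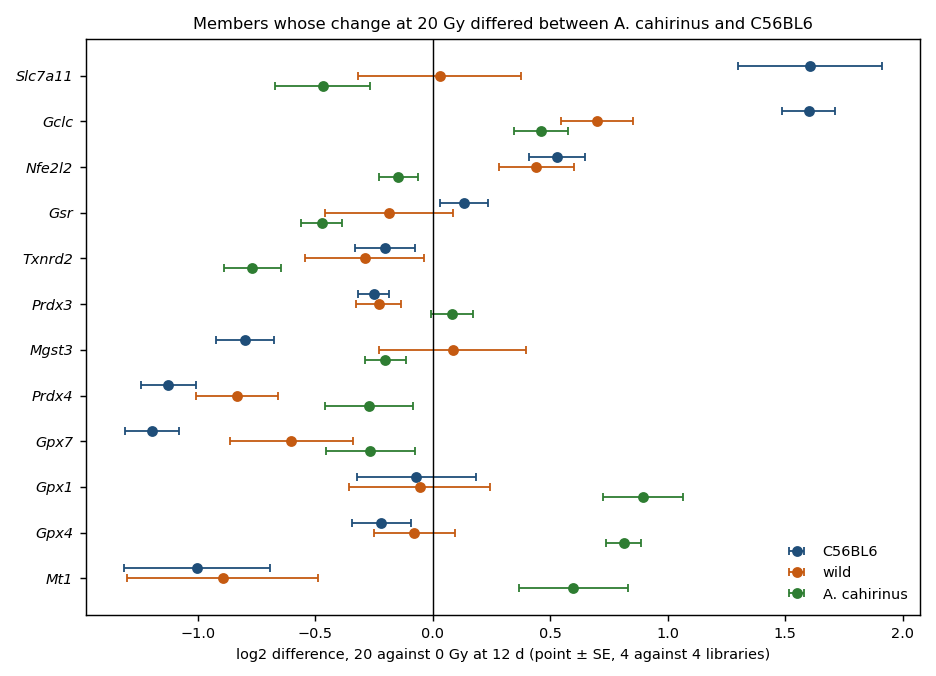
Log2 difference of 20 against 0 Gy at 12 d, with SE, in C56BL6, wild mice and A. cahirinus for the 12 members whose change differed between A. cahirinus and C56BL6, Gstt1 left out as it was not tested in A. cahirinus alone. Slc7a11 lies at 1.61 in C56BL6 and -0.47 in A. cahirinus, and Gpx4 at -0.22 and 0.81. Mouse counts of Gpx1 are uncertain, since reads that matched several places were left out.

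Passage of untreated mouse cells lowered Sod3 and raised Txnrd1 in both populations. In C56BL6, 32 of 44 members differed between passaged and unpassaged cells at 12 d (49.6% of all genes), 13 higher (24.1%) and 19 lower (25.5%), with a median of 0.06 against -0.02. All 10 dividing-cell genes were higher, with sums of 719 to 985 CPM in passaged against 81.1 to 344 CPM in unpassaged cultures at 12 d. The fibroblast marker sum was 40380 ± 9087 CPM in unpassaged and 24362 ± 4309 CPM in passaged cultures. Their part in the members' differences was not tested. The members that fell furthest were Mt2, Sod3, Mt1 and Gstt1, and those that rose furthest Slc7a11, Nqo1, Gsta4 and Txnrd1.

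Sod3, the extracellular superoxide dismutase, stood at 390.5, 484, 593 and 521 CPM at 0 Gy, 127, 313, 389.9 and 465 at 10 Gy, 148, 299, 436 and 426 at 20 Gy and 2.05, 11.4, 36.9 and 33.3 after passage in C56BL6. Wild libraries held 637, 1664, 392 and 501 CPM at 0 Gy, 378, 963, 316 and 388 at 10 Gy, 369, 1262, 316 and 419 at 20 Gy and 33.1, 78.5, 65.01 and 32.9 after passage. In A. cahirinus it stood at 0.508, 2.81, 0.310 and 0.893 CPM at 0 Gy, 2.14, 3.55, 0.971 and 1.18 at 10 Gy, 2.55, 4.89, 2.18 and 2.40 at 20 Gy and 0.193, 0.942, 0.349 and 0.951 after passage. Passaged mouse libraries were far below all others. In A. cahirinus the 0 Gy libraries overlapped with each other group, and all passaged libraries lay below all irradiated ones. Sod3 fell after passage by 4.56 ± 0.79 (adjusted p = 0.00235) in C56BL6 and by 3.94 ± 0.57 (adjusted p = 0.0131) in wild mice, where the call was lost without number 1 or 4 (adjusted p up to 0.162), and differed by -0.92 ± 0.76 (adjusted p = 0.403) in A. cahirinus.

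Mt2, the second metallothionein, stood at 29.4, 36.5, 67.5 and 83.9 CPM at 0 Gy, 7.75, 26.3, 32.2 and 44.1 at 10 Gy, 9.13, 24.4, 31.9 and 32.1 at 20 Gy and 0.674, 1.31, 3.17 and 3.36 after passage in C56BL6. Wild levels were 34.1, 22.4, 90.03 and 19.2 CPM at 0 Gy, 21.2, 15.02, 46.8 and 15.1 at 10 Gy, 16.5, 18.6, 38.7 and 15.3 at 20 Gy and 2.43, 1.63, 31.6 and 1.44 after passage. A. cahirinus libraries held 179.7, 323, 199 and 171 CPM at 0 Gy, 173, 296, 155 and 114 at 10 Gy, 156, 244, 118 and 106 at 20 Gy and 212, 247, 201 and 163 after passage. C56BL6 passaged libraries lay below all others, wild number 3 stayed high after passage while the other 3 wild numbers were low, and A. cahirinus groups overlapped. Mt2 fell by 4.68 ± 0.59 (adjusted p = 0.000693) in C56BL6 and Mt1 by 3.09 ± 0.42 (adjusted p = 0.0009). In wild mice they differed by -3.12 ± 0.45 (adjusted p = 0.00567) and -2.71 ± 0.24 (adjusted p = 0.00218) with the block only. In A. cahirinus Mt1 rose by 1.05 ± 0.25 (adjusted p = 0.0185), lost without number 1, 3 or 4 (adjusted p up to 0.127).

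Members of glutathione and thioredoxin supply were among those that rose on passage. Slc7a11 rose by 2.30 ± 0.30 (adjusted p = 0.000712), Nqo1 by 2.16 ± 0.18 (adjusted p = 0.000186), Gsta4 by 2.01 ± 0.43 (adjusted p = 0.00563) and Txnrd1 by 1.88 ± 0.12 (adjusted p = 0.000144) in C56BL6. Gstt1 fell by 2.82 ± 0.56 (adjusted p = 0.00418) and Keap1 by 0.77 ± 0.08 (adjusted p = 0.000387). Gclc, Hmox1 and Srxn1 also rose, by 1.39 ± 0.13, 0.66 ± 0.08 and 0.66 ± 0.09, and Fth1, Gpx3, Mgst1 and Mgst3 fell by 1.55 ± 0.25, 1.65 ± 0.16, 1.96 ± 0.49 and 2.21 ± 0.18, the Mgst1 call being lost without number 2 or 3 (adjusted p up to 0.0596). Sod2 fell by 0.74 ± 0.24 (adjusted p = 0.0352), but with the block it differed by -0.68 ± 0.25 (adjusted p = 0.0559).

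In wild mice 7 of 45 members differed after passage (10.7% of all genes), 20 with the block (31.9%) and 8 with the block without number 1 (13.7%). Txnrd1 rose by 1.10 ± 0.21 (adjusted p = 0.0228) and Txn1, thioredoxin, by 0.61 ± 0.16 (adjusted p = 0.0473), from 136, 97.4, 167 and 125 to 204, 198, 209.9 and 192 CPM without overlap. Gstt1, Mgst3 and Prdx4 fell by 1.47 ± 0.31 (adjusted p = 0.0286), 1.11 ± 0.28 (adjusted p = 0.0424) and 0.64 ± 0.15 (adjusted p = 0.0351). Mgst3, a microsomal transferase, went from 18.3, 13.5, 25.2 and 15.8 to 11.96, 5.86, 7.60 and 8.36 CPM and Gstt1 from 33.4, 31.6, 34.8 and 26.8 to 13.2, 17.4, 5.99 and 9.17 CPM, in both without overlap. Without number 1 (0%) or number 4 (0%), 0 members passed, and dividing-cell genes were called higher in 2 of 10, or 10 of 10 with the block.

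In A. cahirinus 10 of 39 members differed after passage (25.8% of all genes), 9 higher (12.1%) and 1 lower (13.6%), while the block called 20 (49.5%). Slc7a11 rose by 1.32 ± 0.16 (adjusted p = 0.00141), Txnrd1 by 0.95 ± 0.12 (adjusted p = 0.0019) and Srxn1 by 0.80 ± 0.14 (adjusted p = 0.00605), the last lost without number 1 or 3 (adjusted p up to 0.0625). Prdx2, a cytosolic peroxiredoxin, went from 191, 154, 205 and 197 to 129, 121, 136 and 141 CPM without overlap and fell by 0.52 ± 0.09 (adjusted p = 0.00488), lost without number 1 or 3 (adjusted p up to 0.0635). Cat rose by 0.56 ± 0.07 (adjusted p = 0.00165). The count was 3 without number 1 (6.03%), 20 without number 2 (38.8%), 3 without number 3 (6.14%) and 6 without number 4 (10.7%), and 7 of 10 dividing-cell genes were higher, or 9 with the block.

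**Figure D4:**
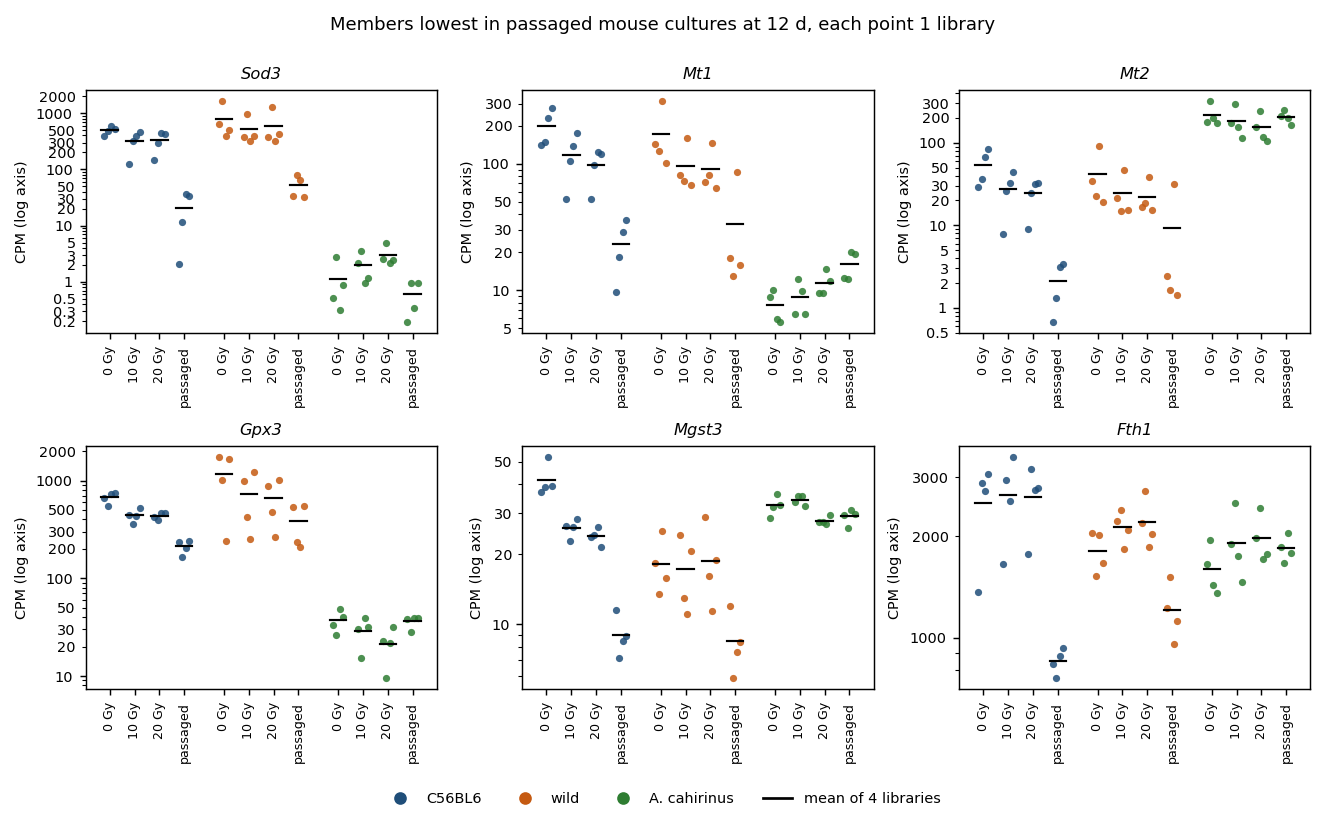
CPM on a log axis of Sod3, Mt1, Mt2, Gpx3, Mgst3 and Fth1 at 12 d in each library of 0 Gy, 10 Gy, 20 Gy and passaged cells, with a line at the mean of 4. Sod3 in C56BL6 runs from 390.5 to 593 CPM at 0 Gy and from 2.05 to 36.9 CPM after passage, and A. cahirinus levels, from another gene table, are not compared with mouse levels.

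Set against passaged cells, 20 Gy cells were higher in Sod3 in all 3 populations. In C56BL6, 24 of 45 members differed (41.6% of all genes), 15 higher (20.4%) and 9 lower (21.2%), with a median of 0.24 against 0.01. Sod3 was higher by 3.95 ± 0.81 (adjusted p = 0.00552), Mt2 by 3.51 ± 0.59 (adjusted p = 0.00209) and Mt1 by 2.06 ± 0.42 (adjusted p = 0.0053). Aldh3a1 was higher in all 4 pairs, and since the passaged libraries were at 0 to 0.103 CPM no fold is given. Txn1 was lower, at 145, 142, 142 and 132 CPM after 20 Gy and 264, 251, 233 and 256 CPM after passage, by -0.87 ± 0.06 (adjusted p = 4.38e-05). Txnrd1, Prdx4 and Gpx7 differed by -0.80 ± 0.18, -0.73 ± 0.10 and -0.72 ± 0.11. Nqo1 and Gclc differed by -0.06 ± 0.10 (adjusted p = 0.698) and 0.18 ± 0.11 (adjusted p = 0.199). All 10 dividing-cell genes were lower in 20 Gy cells, in each of the 3 populations.

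In wild mice 4 of 45 members differed (10.5% of all genes), 22 with the block (38%) and 16 with the block without number 1 (28.2%). Sod3 was higher by 3.53 ± 0.56 (adjusted p = 0.0108), Fth1 by 0.90 ± 0.19 (adjusted p = 0.0264) and Hmox1 by 0.74 ± 0.11 (adjusted p = 0.0102), and Txn1 was lower by 0.65 ± 0.16 (adjusted p = 0.0377). Fth1 stood at 2194, 2717, 1863 and 2037 CPM after 20 Gy and 1222, 1519, 957 and 1120.3 CPM after passage, without overlap. Without number 1 (0%) or number 4 (0%), 0 members passed.

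In A. cahirinus 14 of 39 members differed (42.5% of all genes), 9 higher (19.5%) and 5 lower (23%). Sod3 was higher by 2.31 ± 0.51 (adjusted p = 0.00794), Hmox1 by 1.24 ± 0.29 (adjusted p = 0.0101), Nqo1 by 1.14 ± 0.22 (adjusted p = 0.00441) and Gpx4 by 0.89 ± 0.08 (adjusted p = 0.00019). Slc7a11 was lower, by 1.80 ± 0.20 (adjusted p = 0.000374), as were Gsr by 0.74 ± 0.09 (adjusted p = 0.000643), Txnrd2 by 0.58 ± 0.11 (adjusted p = 0.00459) and Cat by 0.51 ± 0.08 (adjusted p = 0.00133). The Hmox1 call was lost without number 1 (adjusted p = 0.0713).

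At 24 h few members moved beyond the spread of unpaired animals. At 20 Gy 0 of 44 members passed in C56BL6 (0.0895% of all genes), and DESeq2 called 1 (1.84% of all genes). An unadjusted p under 0.05 was found there for 9 members and for 1426 of 14526 genes. In wild mice 0 of 45 passed (0% of all genes), and DESeq2 called 0 (0.587%). There 2 members and 856 of 14473 genes had an unadjusted p under 0.05. In A. cahirinus 2 of 39 passed (3.59%), Gss higher by 0.42 ± 0.07 (adjusted p = 0.0163) and Mt1 lower by 0.81 ± 0.14 (adjusted p = 0.0174), each lost without number 1, 3 or 4 (adjusted p up to 0.154 and 0.111). With the block 17 members passed in C56BL6 (17.6%), 11 in wild mice (12.5%) and 15 in A. cahirinus (24.1%). In A. cahirinus 9 of 10 dividing-cell genes fell, with sums of 1178 to 1566 CPM at 0 Gy and 285 to 639 CPM at 20 Gy, against 0 called in C56BL6 and wild mice. With the block 10 fell in A. cahirinus and 5 in wild mice, and in C56BL6 2 fell and 1 rose. At 10 Gy 0 of 44 passed in C56BL6 (0.007%), 1 by DESeq2 (1.04%) and 13 with the block (11.5%). There 6 members and 1116 of 14280 genes had an unadjusted p under 0.05. In A. cahirinus 2 of 39 passed (3.73%), and 17 with the block (27.6%). In wild mice 0 of 45 passed at 10 Gy with or without the block (0%), and 0 by DESeq2 (0.638%). An unadjusted p under 0.05 was found there for 3 members and for 603 of 14412 genes. Once number 1 was left out, 17 passed with the block (23% of all genes).

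Nqo1 stood at 24 h at 58.6, 60.6, 74.1 and 60.7 CPM at 0 Gy, 53.6, 69.4, 114 and 99.8 at 10 Gy and 67.1, 78.7, 128 and 111 at 20 Gy in C56BL6. The wild values were 24.3, 26.8, 32.7 and 11.4 CPM at 0 Gy, 42.02, 63.3, 77.4 and 27.7 at 10 Gy and 43.7, 78.1, 92.9 and 30.4 at 20 Gy. A. cahirinus levels were 2.78, 3.03, 2.12 and 3.46 CPM at 0 Gy, 4.20, 4.36, 3.27 and 4.63 at 10 Gy and 4.45, 4.84, 4.36 and 5.203 at 20 Gy. Within every animal the 20 Gy library was above its own untreated library, though animals overlapped in mice. With the block Nqo1 differed by 0.57 ± 0.09 (adjusted p = 0.000536) in C56BL6, 1.35 ± 0.12 (adjusted p = 0.000193) in wild mice and 0.76 ± 0.13 (adjusted p = 0.00207) in A. cahirinus.

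Hmox1 stood at 340.0, 433, 444 and 378 CPM at 0 Gy, 408, 438, 569 and 498 at 10 Gy and 373, 438, 555 and 462 at 20 Gy in C56BL6. Wild cells gave 300.2, 230.1, 321 and 227 CPM at 0 Gy, 311, 333, 423 and 315 at 10 Gy and 314, 322, 415 and 319 at 20 Gy. The A. cahirinus values were 113, 123, 136 and 83.7 CPM at 0 Gy, 127, 172, 136 and 110.3 at 10 Gy and 114, 194, 148 and 125 at 20 Gy. Groups overlapped in all 3 populations. With the block Hmox1 differed at 20 Gy by 0.19 ± 0.05 (adjusted p = 0.0193), 0.37 ± 0.09 (adjusted p = 0.0195) and 0.37 ± 0.10 (adjusted p = 0.0213), in the same order.

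Nfe2l2 stood at 118, 120.4, 159.6 and 147 CPM at 0 Gy, 124, 123, 156 and 155 at 10 Gy and 121, 123, 158 and 151 at 20 Gy in C56BL6. Levels in wild mice were 91.4, 129, 137 and 141 CPM at 0 Gy, 48.1, 147, 155 and 152 at 10 Gy and 88.3, 155, 161 and 155 at 20 Gy. Spiny mouse libraries held 111, 101.5, 105 and 127 CPM at 0 Gy, 112, 105, 114 and 138 at 10 Gy and 109.9, 109, 116 and 139.7 at 20 Gy. Doses overlapped everywhere, and wild number 1 was the lowest of its group at each dose. Keap1 stood at 34.99, 34.2, 34.9 and 36.2 CPM at 0 Gy, 34.8, 30.9, 31.3 and 32.2 at 10 Gy and 31.7, 30.4, 31.6 and 32.5 at 20 Gy in C56BL6. In wild mice it stood at 37.9, 58.5, 53.2 and 46.9 CPM at 0 Gy, 49.1, 41.9, 45.8 and 37.8 at 10 Gy and 33.3, 41.5, 45.6 and 41.4 at 20 Gy. Levels in A. cahirinus were 47.3, 40.7, 47.4 and 51.1 CPM at 0 Gy, 38.6, 44.01, 40.2 and 44.2 at 10 Gy and 35.5, 44.9, 42.7 and 47.4 at 20 Gy. C56BL6 libraries at 20 Gy lay just below those at 0 Gy, with a difference of -0.15 ± 0.06 (adjusted p = 0.433), and the other populations overlapped.

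Gclc stood at 67.3, 59.8, 60.7 and 63.6 CPM at 0 Gy, 64.6, 52.5, 63.6 and 64.7 at 10 Gy and 58.96, 51.2, 68.4 and 66.004 at 20 Gy in C56BL6. Wild libraries held 31.9, 36.8, 31.97 and 36.8 CPM at 0 Gy, 6.12, 35.6, 27.4 and 34.4 at 10 Gy and 30.2, 36.3, 31.6 and 31.1 at 20 Gy. In A. cahirinus it stood at 58.5, 55.1, 65.1 and 67.7 CPM at 0 Gy, 43.1, 42.3, 49.996 and 54.7 at 10 Gy and 47.1, 40.1, 54.3 and 55.8 at 20 Gy. The wild library of number 1 at 10 Gy, the shallow one, was far below all others, mouse doses overlapped otherwise, and A. cahirinus libraries were lower at 10 and 20 Gy within each animal. With the block Gclc differed at 20 Gy by -0.30 ± 0.06 (adjusted p = 0.00608) in A. cahirinus.

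Gclm stood at 91.8, 88.6, 115 and 96.5 CPM at 0 Gy, 82.4, 82.5, 116 and 104 at 10 Gy and 80.8, 82.8, 116 and 100.8 at 20 Gy in C56BL6. Wild levels were 55.9, 67.6, 69.2 and 65.3 CPM at 0 Gy, 26.6, 63.8, 65.99 and 62.5 at 10 Gy and 61.7, 74.4, 68.2 and 60.9 at 20 Gy. A. cahirinus libraries held 38.97, 53.9, 42.4 and 45.2 CPM at 0 Gy, 35.3, 40.03, 35.2 and 41.4 at 10 Gy and 37.7, 42.3, 36.2 and 42.6 at 20 Gy. Doses overlapped in each population, and none differed at 20 Gy with or without the block. Slc7a11 stood at 23.5, 23.4, 28.02 and 24.6 CPM at 0 Gy, 21.2, 21.6, 27.6 and 30.2 at 10 Gy and 19.3, 24.6, 25.5 and 25.2 at 20 Gy in C56BL6. The wild values were 56.4, 46.98, 65.8 and 71.1 CPM at 0 Gy, 42.99, 42.9, 53.4 and 60.4 at 10 Gy and 58.1, 40.6, 53.6 and 58.1 at 20 Gy. A. cahirinus levels were 25.4, 23.7, 35.6 and 29.1 CPM at 0 Gy, 23.1, 20.6, 31.1 and 29.3 at 10 Gy and 24.7, 22.7, 27.9 and 28.4 at 20 Gy. Doses overlapped, and wild libraries were the higher of the mouse libraries at each dose.

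Txnrd1 stood at 601, 554, 551 and 472 CPM at 0 Gy, 649, 595, 723 and 643 at 10 Gy and 626, 584, 702 and 619 at 20 Gy in C56BL6. Wild cells gave 257, 391, 301 and 329 CPM at 0 Gy, 147, 571, 296 and 401 at 10 Gy and 357, 569.7, 286 and 377 at 20 Gy. The A. cahirinus values were 233, 279, 234 and 237 CPM at 0 Gy, 251, 329, 241 and 256 at 10 Gy and 247, 343, 242 and 259 at 20 Gy. Groups overlapped, and Txnrd1 differed at 20 Gy by 0.22 ± 0.06 (adjusted p = 0.0161) in C56BL6 with the block. Srxn1 stood at 138, 131, 145 and 137 CPM at 0 Gy, 128, 128, 163 and 159.6 at 10 Gy and 121, 115, 144 and 140.2 at 20 Gy in C56BL6. Levels in wild mice were 72.1, 94.5, 106 and 93.4 CPM at 0 Gy, 76.2, 108.2, 110.0 and 111 at 10 Gy and 62.2, 114, 99.02 and 107.6 at 20 Gy. Spiny mouse libraries held 93.6, 90.6, 103 and 88.2 CPM at 0 Gy, 87.0, 96.2, 88.8 and 87.2 at 10 Gy and 82.6, 107, 88.1 and 91.7 at 20 Gy. Its groups overlapped in every population.

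Sod2 stood at 50.96, 48.2, 38.7 and 37.5 CPM at 0 Gy, 47.7, 47.04, 43.8 and 42.004 at 10 Gy and 41.6, 46.96, 38.6 and 38.6 at 20 Gy in C56BL6. In wild mice it stood at 44.1, 50.4, 45.2 and 46.3 CPM at 0 Gy, 104, 53.2, 40.9 and 42.9 at 10 Gy and 46.2, 52.1, 38.6 and 42.4 at 20 Gy. Levels in A. cahirinus were 37.6, 27.9, 36.7 and 29.9 CPM at 0 Gy, 36.7, 32.6, 37.2 and 31.6 at 10 Gy and 33.9, 28.03, 29.8 and 30.5 at 20 Gy. The shallow wild library was the high one, and no dose separated from 0 Gy. Cat stood at 119, 127, 123 and 117 CPM at 0 Gy, 115, 120.2, 132 and 124 at 10 Gy and 112, 121, 125 and 119 at 20 Gy in C56BL6. Wild libraries held 74.6, 96.7, 86.9 and 96.6 CPM at 0 Gy, 36.8, 116, 101.5 and 124 at 10 Gy and 74.0, 112, 94.03 and 117 at 20 Gy. In A. cahirinus it stood at 187, 162, 213 and 216 CPM at 0 Gy, 181, 174, 191 and 203 at 10 Gy and 177, 175, 197 and 221 at 20 Gy. The shallow wild library was the low one, and doses overlapped.

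**Figure D5:**
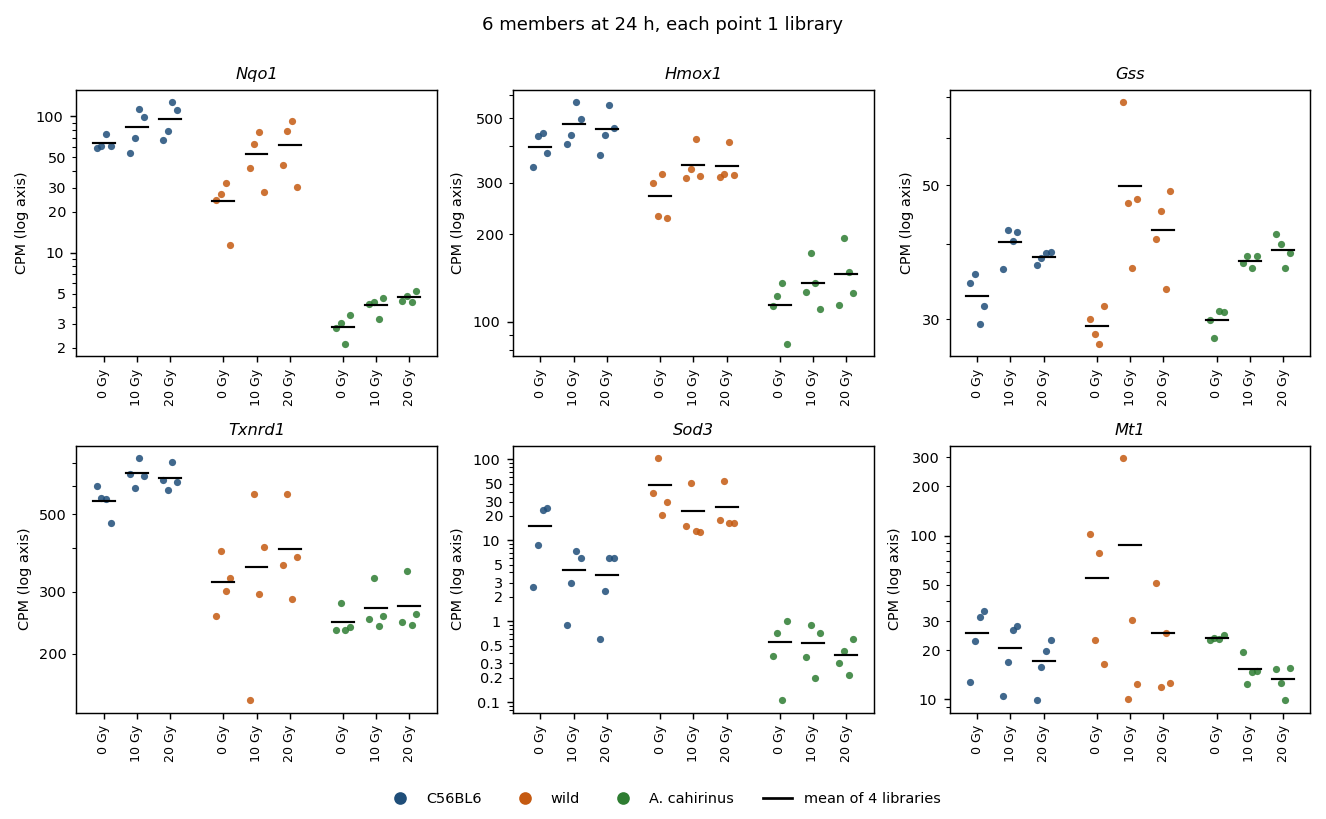
CPM on a log axis of Nqo1, Hmox1, Gss, Txnrd1, Sod3 and Mt1 at 24 h in each library of 0, 10 and 20 Gy, with a line at the mean of 4. Nqo1 in wild mice runs from 11.4 to 32.7 CPM at 0 Gy and from 30.4 to 92.9 CPM at 20 Gy, and A. cahirinus levels, from another gene table, are not compared with mouse levels.

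Sod3, Mt1 and Mt2 were lower at 24 h after 20 Gy in both mouse populations with the block. Sod3 stood at 2.67, 8.70, 23.8 and 24.8 CPM at 0 Gy, 0.905, 2.99, 7.43 and 6.02 at 10 Gy and 0.605, 2.34, 6.10 and 6.05 at 20 Gy in C56BL6. Wild levels were 38.2, 104, 20.4 and 29.8 CPM at 0 Gy, 15.1, 51.4, 13.001 and 12.6 at 10 Gy and 17.8, 53.8, 16.4 and 16.3 at 20 Gy. Each irradiated library was below the untreated library of the same animal, and animals overlapped. With the block Sod3 differed at 20 Gy by -1.99 ± 0.09 (adjusted p = 8.86e-08) in C56BL6 and -0.80 ± 0.12 (adjusted p = 0.00188) in wild mice. Mt1 differed by -0.55 ± 0.07 (adjusted p = 0.000121) and -0.99 ± 0.15 (adjusted p = 0.00241), and Mt2 by -0.94 ± 0.16 (adjusted p = 0.00144) and -1.90 ± 0.23 (adjusted p = 0.000696). Between A. cahirinus and C56BL6 the change at 24 h differed for 1 of 44 members (2.09% of all genes), Gstm1, a cytosolic transferase, by 0.57 ± 0.14 (adjusted p = 0.0452), lost when any number was left out. It stood at 201, 232, 188 and 185 CPM at 0 Gy and 213, 243, 221 and 212 at 20 Gy in A. cahirinus, and at 52.99, 60.95, 53.9 and 61.8 and 38.2, 42.7, 42.01 and 49.1 in C56BL6. The block called 12 there (16.8%).

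Untreated wild and C56BL6 cells differed in Slc7a11 at both times. At 12 d 4 of 45 members differed (2.93% of all genes), 3 higher in wild cells (1.64%) and 1 lower (1.29%). Slc7a11 was higher in wild cells by 3.20 ± 0.36 (adjusted p = 0.00245), with group means of 35.5 ± 9.14 and 3.87 ± 1.57 CPM (SD, n = 4) and no overlap. Gsr was higher by 1.10 ± 0.20 (adjusted p = 0.0269) and Gstp1, which shares reads with a pseudogene, by 0.91 ± 0.19 (adjusted p = 0.0493), and Mgst3 was lower by 1.202 ± 0.21 (adjusted p = 0.0225). Gsr stood at 34.7, 52.6, 40.9 and 27.8 CPM in wild and 20.3, 16.96, 19.7 and 15.99 CPM in C56BL6 cells. Without wild number 1, and also with C56BL6 numbers 1 and 2 only, Slc7a11 was the 1 member called (1.83% and 0.752% of all genes).

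At 24 h 10 of 44 members differed (5.7% of all genes), 2 higher in wild cells (3.32%) and 8 lower (2.38%). Slc7a11 was higher by 1.26 ± 0.14 (adjusted p = 0.00195). Gsto1, an omega-class transferase, stood at 133, 146, 76.7 and 144 CPM in wild and 501, 396, 369 and 339 CPM in C56BL6 cells, without overlap. It was lower by 1.69 ± 0.23 (adjusted p = 0.00432), Nqo1, a call lost without number 1, 2 or 3, by 1.42 ± 0.29 (adjusted p = 0.0275) and Gclc by 0.88 ± 0.09 (adjusted p = 0.00121). Txnrd1, Gclm, Srxn1, Prdx1 and Cat were lower by 0.78, 0.61, 0.60, 0.47 and 0.46, and Gstm2 higher by 0.40, calls that each failed in at least 3 of the 4 fits without 1 number. Counts of Y-linked genes were 0 to 2 in C56BL6 numbers 1 and 2 and in all wild libraries, and 5018 to 8825 in C56BL6 numbers 3 and 4. With numbers 1 and 2 as the C56BL6 group, 3 members were called (1.06% of all genes): Gclc, Slc7a11 and Gsto1.

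The 40 other genes of the pathway, listed from general knowledge of NRF2 targets, NADPH supply, small MAF partners and sestrins, are given for 20 Gy and 12 d. In C56BL6 19 of 40 passed, 14 higher and 5 lower, where 26.5% of all genes passed, with a median of 0.20 against -0.01 over all genes. Maff and Mafk, small MAF proteins that pair with NRF2 on DNA, rose by 1.86 ± 0.23 (adjusted p = 0.00199) and 1.49 ± 0.22 (adjusted p = 0.00322). Sesn3 and Sesn1, stress-induced sestrins, fell by 1.30 ± 0.19 (adjusted p = 0.00328) and 1.13 ± 0.09 (adjusted p = 0.000653). In A. cahirinus 12 of 39 passed, a share near the 31.8% of all genes, 7 higher and 5 lower, with a median of 0.14. Osgin1, an oxidative stress response gene, rose by 2.11 ± 0.48 (adjusted p = 0.0118) and Mafk by 1.18 ± 0.23 (adjusted p = 0.00644), with adjusted p up to 0.0828 and 0.0739 when 1 number was left out. Chac1, which degrades glutathione, fell by 1.07 ± 0.11 (adjusted p = 0.000489), and Slc3a2, the heavy chain that partners the Slc7a11 protein, by 0.97 ± 0.10 (adjusted p = 0.000461). In wild mice Mafk alone passed, higher by 1.05 ± 0.11 (adjusted p = 0.0298), a call lost when 1 number was left out (adjusted p up to 0.499), and the block called 14, 11 higher and 3 lower, where it called 15.4% of all genes.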

How the data were processed

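RNA of 84 cultures was extracted with the Purelink kit and made into stranded mRNA libraries, per the labels' protocols. Trim Galore, HISAT2 and featureCounts are named in the submitters' processing notes. Per the file headers, the deposited read counts per gene were made with featureCounts 2.0.3 on GRCm39 with Ensembl 108 for mouse and on AcoCah2 by gene name for A. cahirinus, with the option for fragments with both ends mapped and no option for strand, multimapped or overlapping reads. Opposite-strand neighbours therefore cannot be told apart.

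The counts were tested with edgeR 4.0.16 in R 4.3.3 (TMM, its expression filter, quasi-likelihood test, Benjamini-Hochberg over all genes, threshold 0.05), fitted as planned for each comparison, on 4 libraries a group. Levels are counts-per-million (CPM) over TMM-scaled library sizes, and a level set across the mouse and A. cahirinus tables is not compared. SE is the log2 difference over the root of F. Changes between species were compared over 18109 symbols that each table lists once, scaling each table by its own size factors. DESeq2 1.42.0, other size factors, no filter, the animal number as a block and leaving out each number were alternatives. The script was tested on simulated data.

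Same-numbered libraries carry 1 animal code, and their deviations correlated by 0.5 to 0.89 on average per comparison, with 4 of 4 pairs over 0.1 in all 18 comparisons, so the numbers pair samples. The members, lists and tests were chosen with earlier results of these data known. Values in every library were given for 11 core genes and for up to 4 members with the largest called change in each direction per comparison at 12 d, and up to 3 between populations. P-values measure the spread between these cultures, labelled as 4 animals a group, which wild numbers 1 and 4 at 12 d may not be.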

Additional observations from a re-analysis of the deposited data

Results flagged for a closer look

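In 20 of 231 checks of an 11-gene set over groups of 4, 1 library lay further from the rest than Dixon's 95% critical value, where chance gives about 1 in 20. In A. cahirinus all 5 were number 2: Gclm at 27.01 CPM at 0 Gy and 12 d, and Txnrd1 at 279 and 343 CPM at 0 and 20 Gy and 24 h and at 180.3 and 198 CPM at 10 and 20 Gy and 12 d. In C56BL6 they were Keap1 number 2 (73.3 CPM, 0 Gy, 12 d), Gclm and Cat number 1 (70.5 and 99.96 CPM, 10 Gy, 12 d), Nqo1 number 3 (74.1 CPM, 0 Gy, 24 h), Gclc number 2 (52.5 CPM, 10 Gy, 24 h) and Slc7a11 number 1 (19.3 CPM, 20 Gy, 24 h). In wild mice at 12 d they were Sod2 number 3 at 176 CPM at 0 Gy and 52.04 CPM after passage, Cat number 1 at 114 CPM at 10 Gy and Slc7a11 number 2 at 42.6 CPM after passage. At 24 h the shallow 10 Gy library of number 1 held 48.1 CPM of Nfe2l2, 26.6 CPM of Gclm and 76.2 CPM of Srxn1, and at 20 Gy Nfe2l2 number 1 held 88.3 CPM and Hmox1 number 3 held 415 CPM.

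The change at 20 Gy differed between A. cahirinus and C56BL6 in edgeR's test of the difference. At 12 d the log2 values, A. cahirinus minus C56BL6, were -0.67 for Nfe2l2, -1.14 for Gclc, -0.60 for Gsr, -2.08 for Slc7a11, -0.56 for Txnrd2, 0.34 for Prdx3, 0.86 for Prdx4, 0.97 for Gpx1, 1.03 for Gpx4, 0.94 for Gpx7, 0.60 for Mgst3 and 1.60 for Mt1. Gstt1, at 3.22, was scarcely counted in A. cahirinus, and the mouse counts of Gpx1 are uncertain. At 24 h Gstm1 differed by 0.57, and against wild mice at 12 d Gpx4 differed by 0.91.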

How the results depend on the processing

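With the replicate block in place of unpaired libraries, the counts of members past the threshold became 17 and 13 (C56BL6, 24 h, 20 and 10 Gy), 34 and 29 (12 d), 11, 15, 14, 20 and 22 in wild mice (20 Gy at 24 h, then at 12 d 20 Gy, 10 Gy, passaged, 20 Gy against passaged) and 15, 17, 26, 16 and 20 in A. cahirinus (20 and 10 Gy at 24 h, 20 and 10 Gy at 12 d, passaged). Between populations the block gave 12 and 26 (A. cahirinus against C56BL6, 24 h and 12 d), 14 (against wild) and 1 (wild against C56BL6). The counts in this section show how calls depend on the fit. Where no share of all genes is given, they are not a result about the members. Of the single members' values called in either fit, 243 passed only with the block, 1 only without it and 167 in both. Values called in neither fit are not in these counts. No paired analysis was possible because animals differ, for untreated wild against C56BL6 cells.

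DESeq2 called 1 and 1 in C56BL6 at 24 h, 6, 6, 15 and 10 in wild mice at 12 d, 7 and 4 in A. cahirinus at 24 h and 5 at 10 Gy and 12 d, 2, 6 and 2 for the changes compared between populations, and 16 for untreated cells at 24 h. Over all genes it called 2888 of 13978 for wild passaged cells and 2617 of 14384 for wild 20 Gy against passaged cells. In A. cahirinus it called 1106 of 13146 and 1010 of 13083 genes at 24 h (20 and 10 Gy), and 1530 of 13215 at 10 Gy and 12 d. Size factors by RLE, and no filter, each gave 0 for A. cahirinus against C56BL6 at 24 h, and no filter gave 3 and 2 for wild passaged cells against 0 Gy and 20 Gy against passaged. Leaving out 1 number gave 12 to 32 and 6 to 25 in C56BL6 at 12 d, 0 to 13 and 0 to 8 for passage in wild mice, and 0 to 4, 0 to 3, 5 to 28, 0 to 8 and 3 to 20 in A. cahirinus. It gave 0, 4 to 12 and 0 to 6 for changes compared with A. cahirinus, and 3 to 6 and 1 to 3 for untreated cells.

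Alternatives added after seeing the data left out wild number 1. With the block they gave 17 (10 Gy, 24 h), 3, 4 and 16 (12 d), 10 against A. cahirinus and 1 against C56BL6, and untreated cells at 12 d gave 1. C56BL6 numbers 1 and 2 alone gave 3 and 1. Directions were not the same in every fit. The median log2 difference of the 45 members in wild mice at 20 Gy and 12 d was 0.02 without the block and -0.02 with it, so some members changed sign. The cause of these shifts was not tested, apart from fewer libraries being fitted. Low counts limit the A. cahirinus members at 0 to 29 counts, and 4 animals a group limit the precision of the rest. A. cahirinus libraries held 25552727 to 52857478 counts, C56BL6 libraries 26653561 to 39819857 and wild libraries 17419339 to 35984517. Why these A. cahirinus members were scarcely counted was not tested.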
